A study of Mus musculus with 10 samples.

Results

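Genes of sterol and fatty acid synthesis were measured in the mouse neuroblastoma line Neuro-2a after knockdown of Sfpq, a nuclear protein that binds RNA and DNA. The members were listed by symbol: 18 sterol enzymes, 10 fatty acid enzymes and 5 regulators. Of these 33 symbols, 32 were found among the 23553 genes of the series, and Hmgcs1 was not analysed here. Cells received Stealth siRNA against Sfpq or against luciferase (Luc, the control) with RNAiMAX, in medium with 2% serum described as a differentiated condition, after growth in 10% serum; the strain label of every group is C57BL/6+C57BL/6J+CBA. Poly(A) RNA was sequenced from 3 Sfpq and 3 Luc libraries, and RNA depleted of ribosomal RNA (rRNA) from 1 Sfpq and 1 Luc library. Chromatin immunoprecipitation of RNA polymerase II, with 1 library for each siRNA, was not analysed here.

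Cholesterol is built from acetyl-CoA through mevalonate, isoprenoids, squalene and lanosterol, and fatty acids are built from the same acetyl-CoA through malonyl-CoA, then lengthened by elongases and given double bonds by desaturases. Transcription of both sets of genes is driven by the SREBP factors, encoded by Srebf1 and Srebf2, which leave the endoplasmic reticulum with the escort Scap when sterol is scarce and are held there by the Insig proteins when sterol is plentiful. Neurons make their own cholesterol during development, and membrane growth of neurites draws on both pathways.

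Expression is given in RPKM, in which reads are divided by transcript length and library size, so that levels can be compared between genes although read numbers are unknown. Judged from ratios of low values, relative depth of the poly(A) libraries ran between 0.628 (Sfpq replicate 1) and 1.28 (Luc replicate 3) times that of Luc replicate 1. Sfpq had 3.98, 4.75 and 6.47 RPKM in the Sfpq libraries, against 56.8, 60.8 and 73.0 RPKM in the Luc libraries, which leaves 7.97% of its Luc mean. In rRNA-depleted RNA it had 4.43 RPKM in the Sfpq library and 30.8 RPKM in the Luc library. All 10 markers of sympathetic neuroblasts and neurons reached 1 RPKM in at least 1 library, summing to between 857 and 923 RPKM in Sfpq and between 955 and 1104 RPKM in Luc poly(A) libraries, without overlap; the part of this difference in the results was not tested. Of 13 markers found for fibroblasts, glia and leukocytes, 0 reached 1 RPKM in any library, and Mog was at 0 in all of them. Luc replicate 3 stood apart, with a correlation across genes of 0.985 with Luc replicate 1 and 0.979 with Luc replicate 2, beside 0.996 between those replicates; it was the Luc library farthest from the middle value for 24 of the 32 members (75.0%) and for 64.7% of all genes tested. The labels do not say whether replicates were separate cultures, and p-values therefore cover the variation among these libraries alone, possibly technical. In bulk RNA, a change in the share of cells in some state cannot be told apart from a change of RNA per cell.

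The promoters shown here belong to the member with the largest called change in each direction in each group, namely Acat2 and Idi1 among sterol enzymes, Insig1 among regulators and Elovl6 among fatty acid enzymes. Each is the stretch of 250 bases before a RefSeq transcript start (build GRCm38.p6), read 5′ to 3′ on the gene's strand, and capitals mark CCAAT in either orientation (the box bound by NF-Y, a partner of SREBP) and CACGTG (an E-box).
Acat2, chr17:12960726-12960975, minus strand: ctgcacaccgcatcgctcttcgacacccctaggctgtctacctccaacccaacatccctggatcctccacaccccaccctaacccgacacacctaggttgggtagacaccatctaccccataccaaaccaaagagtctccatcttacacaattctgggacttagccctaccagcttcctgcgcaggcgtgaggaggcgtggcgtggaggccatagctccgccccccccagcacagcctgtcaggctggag
Idi1, chr13:8885356-8885605, plus strand: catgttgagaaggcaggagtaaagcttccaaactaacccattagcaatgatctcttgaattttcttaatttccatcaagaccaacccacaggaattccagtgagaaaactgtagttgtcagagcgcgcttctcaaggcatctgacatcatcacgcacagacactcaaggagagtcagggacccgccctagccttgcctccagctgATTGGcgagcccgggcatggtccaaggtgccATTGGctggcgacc
Insig1, chr5:28071162-28071411, plus strand: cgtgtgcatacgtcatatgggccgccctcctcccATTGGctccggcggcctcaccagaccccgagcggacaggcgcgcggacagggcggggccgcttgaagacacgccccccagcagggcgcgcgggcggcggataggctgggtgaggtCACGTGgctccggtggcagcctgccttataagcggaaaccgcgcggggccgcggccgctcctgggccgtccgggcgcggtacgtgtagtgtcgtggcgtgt
Elovl6, chr3:129532136-129532385, plus strand: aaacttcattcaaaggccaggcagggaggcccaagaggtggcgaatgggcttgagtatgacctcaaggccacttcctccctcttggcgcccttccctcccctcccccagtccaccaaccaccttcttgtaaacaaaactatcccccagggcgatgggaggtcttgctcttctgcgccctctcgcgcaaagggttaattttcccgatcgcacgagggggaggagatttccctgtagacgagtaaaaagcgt

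In these windows Idi1 held CCAAT in the reverse orientation, beginning 45 and 14 bases before the start, Insig1 held it once, beginning 216 bases before, with CACGTG 101 bases before, and Acat2 and Elovl6 held neither. The table had 35 promoters for 26 members. CCAAT, searched on both strands, was in 21 of them (60.0%) and in 33.8% of the 32851 promoters of all genes. GGGCGG, the box bound by Sp1, was in 25 (71.4%), against 32.7% of all promoters, and CACGTG, which reads the same on both strands, in 6 (17.1%), against 6.02%. TCACNCCAC, the core of the classical sterol regulatory element with 1 free base, was in 0 of the 35 and in 1.05% of all promoters; sites that differ from these letters or lie outside the window were not searched. CCAAT was in a promoter of 4 of the 8 members that fell and of 16 of the other 18 members with a promoter. CACGTG was in a promoter of 3 of the 8 and of 3 of the other 18. GGGCGG was in a promoter of 7 of the 8 and of 14 of the other 18. These counts are per gene, with a match in any of its promoters. Counted in that way over all 27025 genes, CCAAT was in 37.5%, GGGCGG in 35.4% and CACGTG in 6.86%. The sets of all promoters and all genes were not limited to genes detected here, whereas all members found had a mean above 0.5 RPKM. The shares therefore do not show whether these boxes are particular to the members. A match is a string of letters, and binding was not measured here.

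The first comparison asks how the members differed between Sfpq and Luc cells in poly(A) RNA. In Sfpq cells 8 members fell and 1 rose, and 23 did not pass the test, so that 9 of 32 were called where 40% of all genes were (limma on log2 of RPKM + 0.5, Benjamini-Hochberg adjusted p under 0.05 over all genes tested). Falls were spread over the pathway: Acat2 at its entry, Cyp51, Sc5d and Dhcr7 in its late sterol steps, Insig1 among the regulators, and Acly, Fads2 and Elovl6 among fatty acid enzymes. Idi1 was the member that rose. The 8 falls make up 25.0% of the 32 members tested, where 18.6% of all 11727 genes tested fell, and the 1 rise makes up 3.12%, where 21.3% of all genes rose. All members found were above the filter on low values, a mean of 0.5 RPKM. The median log2 difference, Sfpq minus Luc, was -0.13 over the members and 0.05 over all genes tested, and 23 of the 32 members had a negative value. Without Luc replicate 3, 13 members fell and 2 rose, that is 40.6% and 6.25% of them, where 22.5% and 30.9% of all genes fell and rose.

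**Figure D1:**
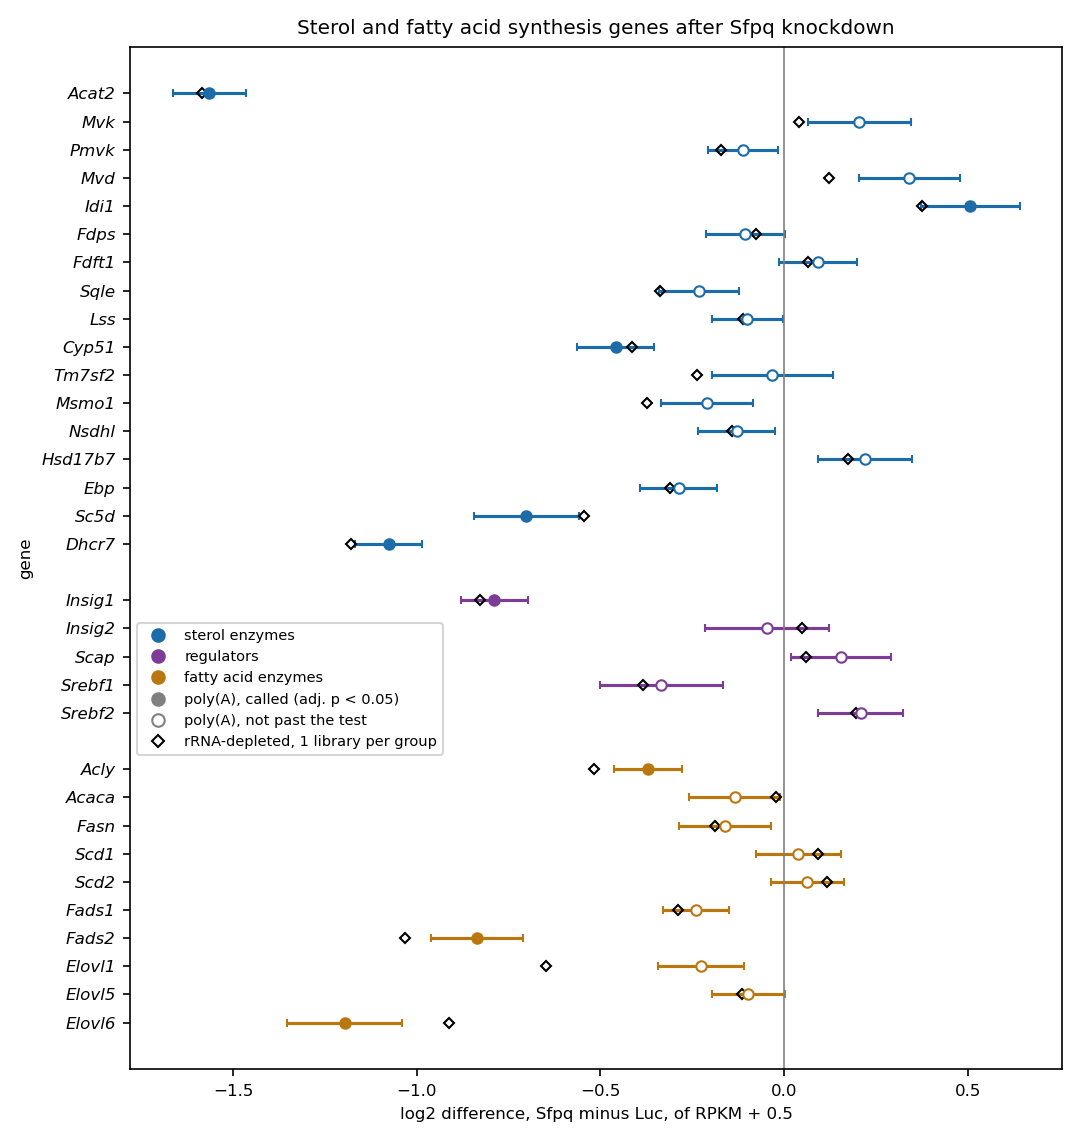
The log2 difference between Sfpq and Luc cells (Sfpq minus Luc, RPKM + 0.5) is plotted for each of the 32 genes, with circles for the limma estimate in poly(A) RNA (bars, 1 SE; n = 3 libraries per group) and diamonds for the ratio in rRNA-depleted RNA (1 library per group, no error). Filled circles mark the 9 called genes; Acat2 lies farthest to the left at -1.56, and Idi1 farthest to the right at 0.51.

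Sfpq and Luc libraries did not overlap for 14 of the 32 members (for all genes tested, 52.9%), with Sfpq above Luc for 3 (28.2%) and below for 11 (24.7%). The 5 such members that missed the test were Mvd and Srebf2 with Sfpq above, and Sqle, Ebp and Fads1 with Sfpq below. Replicates of the members spread less in Sfpq than in Luc libraries, with median SDs of 0.09 and 0.16 on the log2 scale, as they did over all genes tested (0.11 and 0.17). The SD was larger in Luc for 24 of the 32 members.

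The mevalonate branch turns acetyl-CoA into the isoprenoid farnesyl diphosphate. Acat2, the cytosolic thiolase that joins acetyl-CoA units at its entry, had 17.8, 20.7 and 19.6 RPKM in the Sfpq libraries, against 55.6, 60.2 and 58.8 RPKM in the Luc libraries. Every Sfpq library was far below every Luc library, and the Sfpq mean was 0.333 times the Luc mean (log2 difference -1.56, SE 0.10, limma adjusted p = 6.06e-06), the largest change of any member. Acat3, a close relative that lies beside Acat2, had 4.23 RPKM in Sfpq and 13.3 RPKM in Luc libraries on average, a fall of nearly the same size (log2 difference -1.54, limma adjusted p = 1.47e-05). How reads that match both genes were assigned is not given in the sources used here, so the value of each gene of the pair is uncertain.

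Idi1, the isomerase that activates isopentenyl diphosphate, had 82.8, 73.5 and 70.8 RPKM in the Sfpq libraries, against 51.9, 45.2 and 63.5 RPKM in the Luc libraries. The groups did not overlap, although Sfpq replicate 3 and Luc replicate 3 lay close (log2 difference 0.51, SE 0.13, limma adjusted p = 0.0149). The call ended without Sfpq replicate 1 (0.44, adjusted p = 0.0634) and when low genes were kept (adjusted p = 0.0945). Mvd, the decarboxylase that makes isopentenyl diphosphate, had 67.0, 65.0 and 68.1 RPKM in Sfpq, against 56.6, 60.9 and 42.1 RPKM in Luc libraries, without passing the test (0.34, SE 0.14, limma adjusted p = 0.0751). It passed without Luc replicate 2 (0.45, limma adjusted p = 0.0302) and with quantile normalization (0.42, limma adjusted p = 0.0471). Luc replicate 3 was the lowest of the Luc libraries for Mvd. Mvk (0.20, SE 0.14), the kinase of mevalonate, and Pmvk (-0.11, SE 0.10), the kinase of phosphomevalonate, did not pass either. Nor did Fdps (-0.11, SE 0.11), the synthase of farnesyl diphosphate. Limma adjusted p of these genes lay between 0.275 and 0.463. Of the 6 mevalonate genes measured, 1 fell and 1 rose, 16.7% each, where 18.6% of all genes fell and 21.3% rose.

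From squalene onwards the pathway closes the sterol rings and trims them to cholesterol, and here 3 of 11 enzymes (27.3%) fell and 0 rose (limma; 0 also at an unadjusted p under 0.05), where 18.6% of all genes fell and 21.3% rose. Dhcr7, the reductase that makes cholesterol in its last step, had 27.0, 24.7 and 25.1 RPKM in the Sfpq libraries, against 54.8, 54.8 and 54.0 RPKM in the Luc libraries. The Luc libraries were nearly equal and the groups lay far apart, and the Sfpq mean was 0.470 times the Luc mean (log2 difference -1.08, SE 0.09, limma adjusted p = 3.03e-05). Sc5d, the desaturase that acts just before Dhcr7, had 9.21, 10.8 and 9.91 RPKM in Sfpq, against 15.2, 14.4 and 20.5 RPKM in Luc libraries (-0.70, SE 0.14, limma adjusted p = 0.00428). The groups did not overlap, and Luc replicate 3 was the highest. Cyp51, the lanosterol demethylase, had 51.9, 54.9 and 53.3 RPKM in Sfpq, against 70.2, 68.1 and 83.0 RPKM in Luc libraries (-0.46, SE 0.11, limma adjusted p = 0.0076), again with Luc replicate 3 the highest and no overlap.

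The other 8 enzymes from squalene synthase onwards did not pass the test. Sqle, the squalene epoxidase and a point of control of the pathway, had 75.8, 78.8 and 74.4 RPKM in Sfpq, against 83.4, 84.2 and 102.9 RPKM in Luc libraries, and missed the test (-0.23, SE 0.11, limma adjusted p = 0.119). The isomerase Ebp had 11.1, 11.3 and 10.2 RPKM in Sfpq, against 13.3, 14.3 and 12.4 RPKM in Luc libraries, just short of the threshold (-0.29, SE 0.10, limma adjusted p = 0.0544). Ebp passed without Luc replicate 3 (-0.34, adjusted p = 0.00964), with median-ratio scaling (adjusted p = 0.0389) and with quantile normalization (adjusted p = 0.0405). The squalene synthase Fdft1 (0.09), the cyclase Lss (-0.10), the reductase Tm7sf2 (-0.03), the methyl oxidase Msmo1 (-0.21), Nsdhl (-0.13) and Hsd17b7 (0.22) had limma adjusted p between 0.2 and 0.896. Hsd17b7 passed as higher without Luc replicate 3 (0.32, limma adjusted p = 0.0204). Fdft1 and Tm7sf2 overlap other measured genes in the name table, Ctsb and Vps51, judged by gene start and end. Reads in any stretch shared with these genes could not be told apart without strand. Overlap of exons was not examined.

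**Figure D2:**
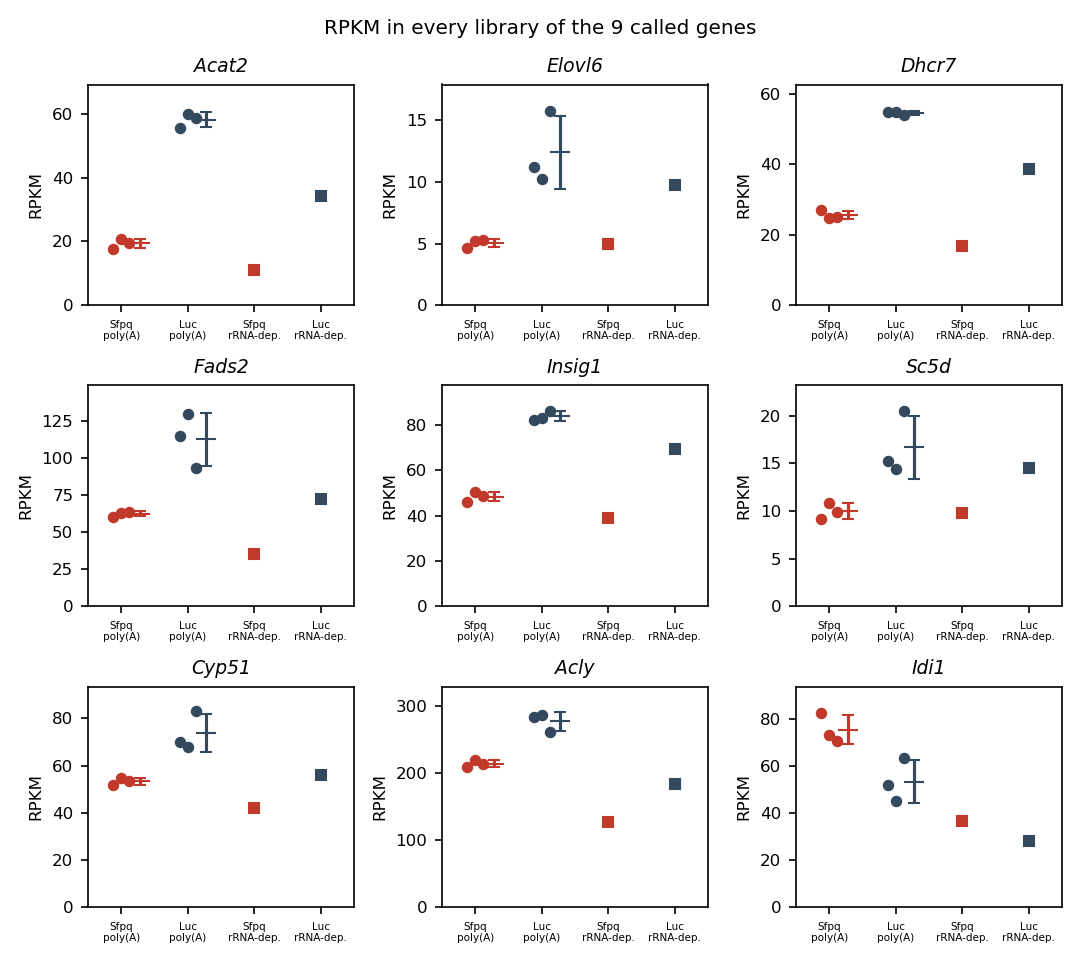
RPKM is plotted for the 9 called genes in every library, each panel from 0, with Sfpq left of Luc within each preparation; circles are single poly(A) libraries, the mark beside them is their mean with 1 SD (n = 3), and squares are the single rRNA-depleted libraries. Sfpq libraries lie below all Luc libraries of the same preparation in 8 panels and above them for Idi1.

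Among the regulators, Insig1 fell and the genes of the SREBP factors did not pass the test. That is 1 of 5 (20%), where 18.6% of all genes fell. Without Luc replicate 3, 2 of 5 fell, where 22.5% of all genes fell. Insig1, which retains SREBP and Scap in the endoplasmic reticulum and is itself a textbook SREBP target, had 46.1, 50.3 and 48.6 RPKM in the Sfpq libraries, against 82.1, 83.2 and 86.2 RPKM in the Luc libraries. The groups lay far apart and each was tight, with a Sfpq mean 0.577 times the Luc mean (log2 difference -0.79, SE 0.09, limma adjusted p = 0.000177). Its relative Insig2 had 13.5, 14.5 and 16.1 RPKM in Sfpq, against 13.9, 12.5 and 20.1 RPKM in Luc libraries, so that the groups overlapped (-0.05, SE 0.17, limma adjusted p = 0.845). Insig2 has 4 transcript rows, and the one used was the highest.

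Srebf2, the factor that favours sterol genes, had 129, 137 and 130.0 RPKM in Sfpq, against 121, 127 and 97.4 RPKM in Luc libraries (0.21, SE 0.12, limma adjusted p = 0.183). Srebf1, the factor that favours fatty acid genes, had 48.7, 59.0 and 54.5 RPKM in Sfpq, against 73.9, 82.6 and 51.8 RPKM in Luc libraries (-0.33, SE 0.17, limma adjusted p = 0.139). In both genes Luc replicate 3 lay well below the other Luc libraries, within the Sfpq range for Srebf1 and below it for Srebf2. Without that library Srebf1 passed as lower (-0.53, limma adjusted p = 0.000952), while Srebf2 did not pass under any alternative run. The escort Scap had 18.6, 23.7 and 22.2 RPKM in Sfpq, against 20.2, 21.5 and 16.2 RPKM in Luc libraries, with overlap (0.15, SE 0.14, limma adjusted p = 0.396). Srebf1 overlaps the measured gene Rai1 in the name table, judged by gene start and end. Reads in any shared stretch could not be told apart without strand, and overlap of exons was not examined.

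**Figure D3:**
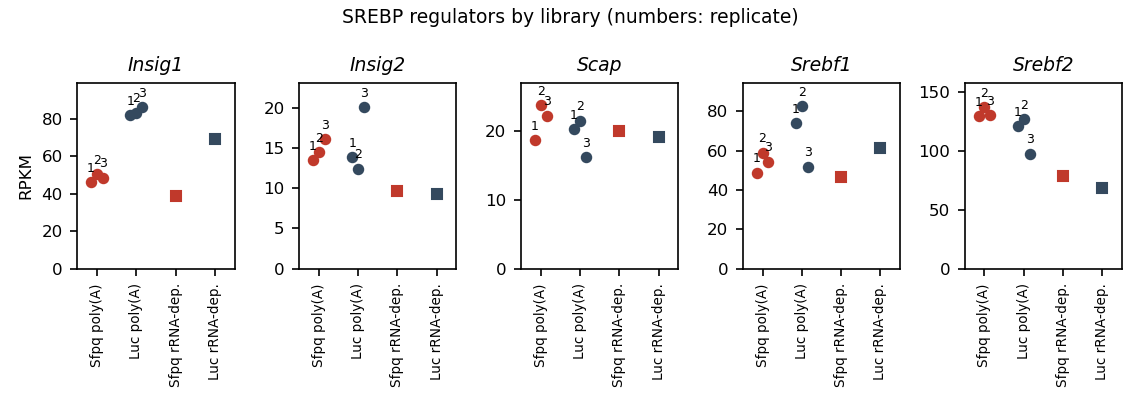
RPKM of the 5 regulators is plotted by library from 0, with Sfpq left of Luc within each preparation; circles are poly(A) libraries labelled by replicate number, and squares are the single rRNA-depleted libraries. Insig1 separates the groups, whereas Luc replicate 3 sits apart from Luc replicates 1 and 2 for Insig2, Scap, Srebf1 and Srebf2.

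In the fatty acid group 3 of 10 enzymes fell and 0 rose (limma; 0 also at an unadjusted p under 0.05), where 18.6% of all genes fell and 21.3% rose, and 7 did not pass. Without Luc replicate 3, 6 of the 10 fell, where 22.5% of all genes fell. Acly, which splits citrate into the acetyl-CoA used by both pathways, had 208, 219.7 and 214 RPKM in the Sfpq libraries, against 283, 287 and 261 RPKM in the Luc libraries. The groups did not overlap, and the difference was modest (-0.37, SE 0.09, limma adjusted p = 0.011). The Acly call ended without Sfpq replicate 3 (-0.37, adjusted p = 0.0548), without Luc replicate 1 (-0.35, adjusted p = 0.0537) and with quantile normalization (-0.23, adjusted p = 0.0717). Acaca, the carboxylase that makes malonyl-CoA (-0.14, SE 0.12, limma adjusted p = 0.409), and Fasn, the synthase of palmitate (-0.16, SE 0.12, limma adjusted p = 0.335), did not pass, though Fasn did so as lower without Luc replicate 3 (-0.29, adjusted p = 0.00821). Acaca overlaps the measured gene Tada2a in the name table.

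Elovl6, the elongase that extends palmitate, had 4.66, 5.20 and 5.27 RPKM in Sfpq, against 11.2, 10.2 and 15.7 RPKM in Luc libraries. The Sfpq libraries lay close together at 0.407 times the Luc mean, and Luc replicate 3 was the highest (log2 difference -1.20, SE 0.16, limma adjusted p = 0.000393). Elovl1 (-0.23, SE 0.12) and Elovl5 (-0.10, SE 0.10), which act on very long saturated and on polyunsaturated chains, did not pass, with limma adjusted p = 0.153 and 0.463; without Luc replicate 3 Elovl1 passed as lower (-0.31, adjusted p = 0.018).

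Fads2, the desaturase that starts the synthesis of long polyunsaturated fatty acids, had 60.2, 62.5 and 63.6 RPKM in the Sfpq libraries, against 114, 129 and 93.2 RPKM in the Luc libraries. All Sfpq libraries lay below all Luc libraries, at 0.553 times their mean (log2 difference -0.84, SE 0.13, limma adjusted p = 0.00083). Its neighbour Fads1, which acts later in that synthesis, had 47.2, 47.9 and 46.4 RPKM in Sfpq, against 56.2, 57.4 and 53.8 RPKM in Luc libraries, a small gap without overlap that missed the test (-0.24, SE 0.09, limma adjusted p = 0.0576). Fads1 passed without Luc replicate 3 (-0.27, adjusted p = 0.011), with median-ratio scaling (adjusted p = 0.0393) and when low genes were kept (adjusted p = 0.0118). Scd2, the main stearoyl-CoA desaturase of the brain, had 259.7, 242 and 226 RPKM in Sfpq, against 233, 218 and 245 RPKM in Luc libraries (0.06, SE 0.10, limma adjusted p = 0.642). Scd1, the main form of liver and fat, was near 2 RPKM in both groups, with means of 2.19 ± 0.201 RPKM in Sfpq and 2.12 ± 0.0971 RPKM in Luc libraries (SD, n = 3 each; 0.04, SE 0.12, limma adjusted p = 0.812). The Scd genes are close copies, so the reads of the weaker Scd1 are uncertain beside those of Scd2.

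Sterol enzymes were set against fatty acid enzymes as a description with no test. The median log2 difference, Sfpq minus Luc, was -0.11 over 17 sterol enzymes, -0.05 over 5 regulators and -0.19 over 10 fatty acid enzymes, beside 0.05 over all genes tested. Without Luc replicate 3 these medians were -0.10 for sterol enzymes, 0.04 for regulators, where the sign turned, and -0.28 for fatty acid enzymes, beside 0.08 over all genes. Called falls made up 23.5% of sterol enzymes, 20% of regulators and 30% of fatty acid enzymes, where 18.6% of all genes fell. Without Luc replicate 3 falls made up 29.4% of sterol enzymes, 40% of regulators and 60% of fatty acid enzymes, where 22.5% of all genes fell. Rises made up 5.88% of sterol enzymes, with 0 in the other groups, where 21.3% of all genes rose. Within a library, the median log2 level of sterol enzymes exceeded that of fatty acid enzymes by 0.46, 0.58 and 0.60 in the Sfpq libraries, against 0.51, 0.40 and 0.57 in the Luc libraries. These gaps overlapped, and their mean was 0.55 ± 0.08 in Sfpq and 0.49 ± 0.09 in Luc libraries (SD, n = 3 each). The difference of 0.05 between those means is smaller than either SD; without Luc replicate 3 it was 0.09. In rRNA-depleted RNA the gap was -0.001 in the Sfpq library and 0.065 in the Luc library. Summed RPKM was 1033, 1083 and 1054 for the sterol enzymes in Sfpq libraries, against 1135, 1157 and 1258 in Luc libraries, without overlap. For the fatty acid enzymes the sum was 712, 718 and 689 in Sfpq, against 854, 867 and 804 in Luc libraries, also without overlap. The strongest genes in these sums were Fdps and Msmo1 among sterol enzymes, and Acly and Scd2 among fatty acid enzymes.

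Levels differed far more between members than between conditions. Fdps was the strongest member, with means of 308 ± 22.6 RPKM in Sfpq and 332 ± 29.8 RPKM in Luc libraries (SD, n = 3 each). Acly, with 214 ± 5.63 RPKM in Sfpq and 277 ± 13.8 RPKM in Luc libraries, and Scd2, with 243 ± 16.6 RPKM in Sfpq and 232 ± 13.7 RPKM in Luc libraries, followed (SD, n = 3 each). Scd2 ranked above Acly in Sfpq cells and below it in Luc cells. At the low end, above Scd1, lay Elovl6 in Sfpq cells at 5.04 ± 0.332 RPKM and Acaca in Luc cells at 10.8 ± 1.08 RPKM (SD, n = 3). Among the sterol enzymes the lowest was Sc5d in Sfpq cells (9.98 ± 0.813 RPKM) and Hsd17b7 in Luc cells (11.6 ± 1.58 RPKM; SD, n = 3).

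**Figure D4:**
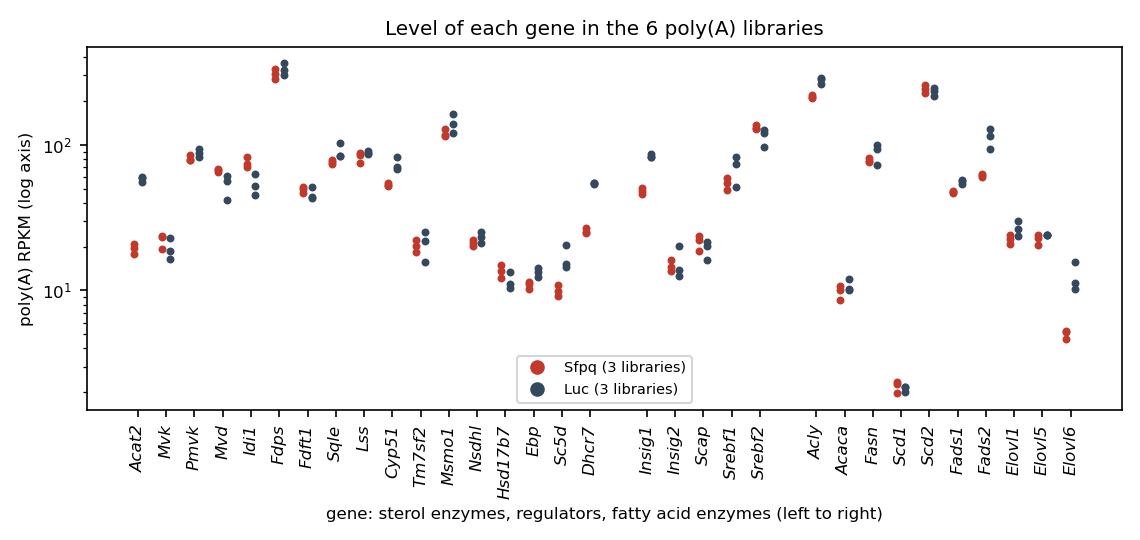
RPKM in the 6 poly(A) libraries is plotted on a log axis for each gene, with the 3 Sfpq libraries left of the 3 Luc libraries at each gene. Levels run from about 2 RPKM for Scd1 to between 303 and 362 RPKM for Fdps in Luc libraries, and the groups stand clearly apart for Acat2, Dhcr7, Insig1, Fads2 and Elovl6.

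The second comparison asks for the same difference in rRNA-depleted RNA, which also holds transcripts without a poly(A) tail; with 1 library per group it has no replicate check. There Acat2 had 11.1 RPKM in the Sfpq library, against 34.2 RPKM in the Luc library (log2 ratio -1.58). Dhcr7 had 16.8 RPKM in the Sfpq and 38.6 RPKM in the Luc library (-1.18), and Fads2 had 35.1 RPKM in the Sfpq and 72.3 RPKM in the Luc library (-1.03). All were lower in the Sfpq library by more than 1.5-fold, as they were lower in poly(A) RNA. Elovl6 had 4.93 RPKM in the Sfpq and 9.72 RPKM in the Luc library (-0.91), and Insig1 had 38.8 RPKM in the Sfpq and 69.3 RPKM in the Luc library (-0.83). The sixth member lower by more than 1.5-fold was Elovl1, with 9.87 RPKM in the Sfpq library and 15.7 RPKM in the Luc library (-0.65). These 6 members are 6 of 32, where 13.3% of 11386 genes were lower by that much, and 0 members were higher by that much, where 7.86% of genes were. Sc5d (-0.54), Acly (-0.52) and Cyp51 (-0.41), which fell in poly(A) RNA, were lower by less than 1.5-fold, and Idi1 had 36.7 RPKM in the Sfpq and 28.2 RPKM in the Luc library (0.37). The factor genes Srebf1 (-0.39) and Srebf2 (0.20) kept the signs of their poly(A) values.

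Side by side, the log2 differences of the preparations had the same sign for 31 of 32 members, Insig2 being the exception with values near 0 in both (-0.05 in poly(A), 0.05 in rRNA-depleted RNA). Over all genes measured in both, 86.7% had the same sign. The values lay within 0.2 log2 units of each other for 28 of the 32 members, with a median absolute gap of 0.06, and for 8058 of 11208 genes, with a median of 0.12. The widest gaps were for Elovl1 (-0.23 in poly(A), -0.65 in rRNA-depleted RNA), Elovl6 (-1.20 and -0.91), Mvd (0.34 and 0.12) and Tm7sf2 (-0.03 and -0.24). Differences between preparations were not tested. The labels do not say whether both came from the same cultures. Elovl1 overlaps the measured gene Cdc20 in the name table.

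Poly(A) levels exceeded rRNA-depleted levels for most members. The median log2 difference, poly(A) minus rRNA-depleted, was 0.55 over members in Sfpq cells and 0.51 in Luc cells, beside 0.50 and 0.44 over all genes measured in both. It was widest for Tm7sf2 (2.45 in Sfpq, 2.27 in Luc cells) and Fdps (1.91 in Sfpq, 1.94 in Luc cells), and it had the other sign for Scd1 (-0.96 in Sfpq, -0.91 in Luc cells), Hsd17b7 (-0.25 in Sfpq, -0.29 in Luc cells) and Scd2 (-0.11 in Sfpq, -0.06 in Luc cells). Preparation and library cannot be told apart in these values.

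Other genes of the same pathways were read from 6 lists. The list of other sterol synthesis genes was broader than the synthesis steps, as it also held the mitochondrial thiolase Acat1 and Tmem97. In this list 4 of 6 tested fell and 1 rose, where 18.6% of all genes fell and 21.3% rose. Tmem97, a sterol-regulated membrane protein, had 51.0 ± 5.21 RPKM in Sfpq and 91.3 ± 10.9 RPKM in Luc libraries (SD, n = 3 each; -0.83, limma adjusted p = 0.00077). Lbr, a protein of the nuclear membrane with sterol reductase activity, rose (0.42, SE 0.11, limma adjusted p = 0.0128).

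Genes that process or degrade SREBP, Scap and their partners rose in 4 of 10 cases and fell in 1. For this list and the next lists, 21.3% of all genes rose and 18.6% fell. Rnf145 (0.58) and Erlin2 (0.55), parts of the degradation system of the endoplasmic reticulum, rose, whereas Paqr3, which tethers Scap and SREBP at the Golgi, fell (-0.96, SE 0.11, limma adjusted p = 0.000186). For sterol uptake and trafficking 4 of 12 fell and 1 rose, led by the sterol transfer gene Gramd1b (-0.81) and the lipoprotein receptor Lrp8 (-0.71), with Stard3 higher (0.42, limma adjusted p = 0.0443). In the list of liver X receptors, efflux and sterol esters 4 of 9 rose and 1 fell. Abcg4, a sterol efflux transporter, had 2.56 ± 0.270 RPKM in Sfpq and 0.42 ± 0.0709 RPKM in Luc libraries (SD, n = 3 each; 1.73, SE 0.13, limma adjusted p = 1.4e-05). The receptor gene Nr1h2 rose (0.59), and Nceh1, a hydrolase of cholesteryl esters, fell (-1.25).

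Falls also ran through the other genes of fatty acid synthesis, with 7 of 21 lower and 3 higher. Acss2, which makes cytosolic acetyl-CoA from acetate, had 11.5 ± 0.999 RPKM in Sfpq and 37.8 ± 3.79 RPKM in Luc libraries (SD, n = 3 each; -1.67, SE 0.11, limma adjusted p = 9.38e-06). Among the dehydratases of the elongation cycle, Hacd3 had 9.42 ± 0.621 RPKM in Sfpq and 28.6 ± 2.96 RPKM in Luc libraries (-1.55) and Hacd1 had 56.1 ± 5.67 RPKM in Sfpq and 22.5 ± 0.351 RPKM in Luc libraries (1.29; SD, n = 3 each). Elovl4, an elongase of very long chains, rose (0.70). Genes of fatty acid oxidation rose in 4 of 14 cases and fell in 0 in the limma test, where 21.3% of all genes rose. The other 10 did not pass, and the median log2 difference of this list was 0.016. In that test 1 was lower at an unadjusted p under 0.05. The largest rises were those of the dehydrogenase Acadl (0.64) and the transferase Cpt1a (0.60). In rRNA-depleted RNA, with 1 library per group, the log2 ratio was 0.072 for Acadl and 0.695 for Cpt1a. Over these 6 lists the shares should be read against 18.6% of all genes lower and 21.3% higher.

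**Figure D5:**
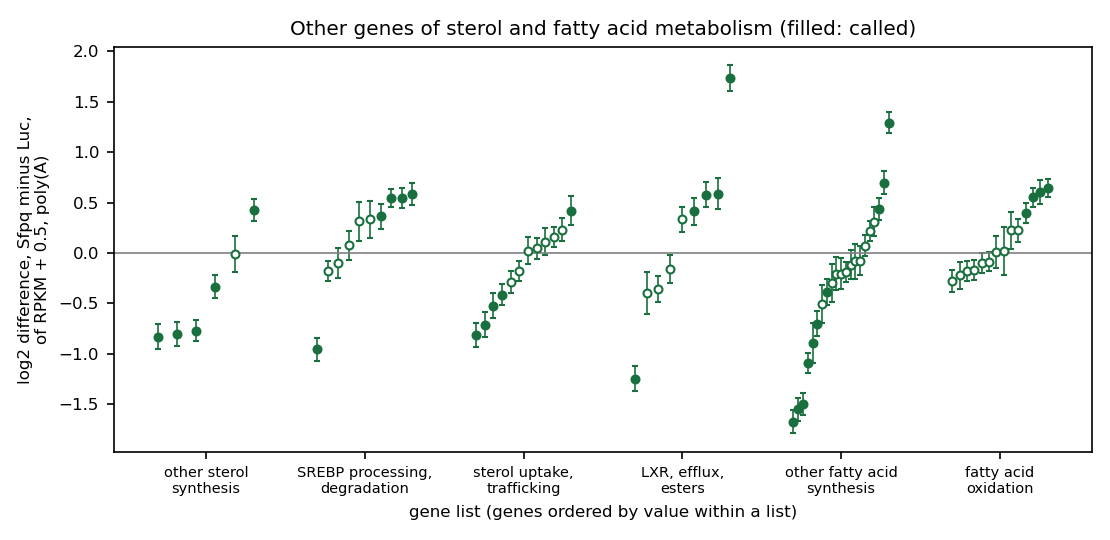
The log2 difference (Sfpq minus Luc, RPKM + 0.5) in poly(A) RNA is plotted for the tested genes of 6 related lists, ordered by value within each list, with bars of 1 SE and filled points for called genes. The lowest point is Acss2 at -1.67 in fatty acid synthesis, and the highest is Abcg4 at 1.73 in the list of efflux genes.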

How the data were processed

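RNA was sequenced on the Ion Proton system, per the labels' protocols, and reads were aligned with TopHat2 2.0.10 to mm9, per the submitters' processing notes. The deposited values are RPKM per RefSeq transcript, 1 file per library, per the file headers; the sources used here do not name the program that computed RPKM, its annotation or its handling of strand and multiple matches. Depth is unknown, so no counting interval is given; relative depth came from the commonest ratio of low values between libraries.

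Of 30978 rows per file, 98.5% took a gene name from a table of assembly GRCm38.p6, used for names and neighbours only; promoter sequences come from RefSeq on that assembly. The row of highest mean over the 8 files stood for a symbol; 7 members had more than 1 row. Groups and replicates came from the titles; for Sfpq poly(A) replicate 2 the title and description disagree on the number. Poly(A) libraries were fitted with limma 3.58.1 (trended; R 4.3.3) after taking log2(RPKM + 0.5), keeping genes whose mean reached 0.5 RPKM. A fold change on this scale understates the change of low genes. Values of rRNA-depleted libraries are log2 ratios on the same scale, counted past 1.5-fold. The limma step was tested on simulated poly(A) libraries of both groups (11657 genes), in which 200 genes were changed. It recovered 30.3% of genes changed by 0.5 log2 units, 71.6% of those changed by 1 and 98.5% of those changed by 2. It called 0.00873% of unchanged genes. In the data 40% of genes were called, and Luc libraries spread more than Sfpq libraries. The simulation used 1 SD per gene for both groups, so its recovered shares need not hold for the real fit.

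The members and lists were chosen with earlier results of these data known. Values per library were given for called members, for regulators and for members near the threshold, the last chosen after their values were seen; from each related list, the 2 largest called changes in each direction, except 1 gene that is not reported here. Alternatives were a pseudocount of 0.1 or 1, a minimum mean of 2 RPKM or none, scaling by median ratios, normalization by quantiles, the mean or sum of a symbol's rows, limma without trend, a replicate block and leaving out each library.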

Additional observations from a re-analysis of the deposited data

How the results depend on the processing

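The count of 8 members lower in poly(A) RNA ran from 7 to 13 when 1 library was left out, the 13 without Luc replicate 3, and the count of 1 higher ran from 0 to 2. It was 0 higher with no filter on low values in the limma fit (1 at an unadjusted p under 0.05) and 2 with quantile normalization. Over all genes, leaving out 1 library gave between 1546 and 3621 higher and between 1673 and 2645 lower. Acat2, Dhcr7, Sc5d, Cyp51, Insig1, Fads2 and Elovl6 passed under all 16 alternatives, Idi1 under 14 and Acly under 13, and no called member changed sign. The gap between sterol and fatty acid enzymes, Sfpq minus Luc, stayed between 0.01 and 0.10 without any 1 library. Members lower by 1.5-fold in rRNA-depleted RNA numbered 5 with quantile normalization and 6 under the other 7 alternatives that could be run on 1 library per group, with 0 higher in all 8. Whether replicate numbers pair the libraries remained unclear. Correlations of deviations for the same number were 0.327, -0.035 and 0.157. Sfpq replicates 1 and 3 correlated best with the Luc library of their number, whereas Sfpq replicate 2 correlated best with Luc replicate 3. A replicate block gave 8 members lower and 1 higher, as without it. Over all genes the block gave 2681 higher and 2309 lower, against 2502 and 2185 without it. Read numbers are unknown, so precision rests on 3 libraries per group in poly(A) RNA and on none in rRNA-depleted RNA.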

Other observations

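Genes that lie next to members moved more than the members themselves in some places; these were chosen after their values were seen, and adjacency comes from the name table. Around Srebf1, which missed the test, Rai1, a chromatin regulator, had means of 2.45 RPKM in Sfpq and 7.14 RPKM in Luc libraries (log2 difference -1.36, limma adjusted p = 0.000625). Pemt, which makes phosphatidylcholine by methylation, had 2.67 RPKM in Sfpq and 9.01 RPKM in Luc libraries (-1.59, limma adjusted p = 4.15e-05), and Tom1l2, a trafficking adaptor, 4.94 RPKM in Sfpq and 12.1 RPKM in Luc libraries (-1.22, limma adjusted p = 0.000122). Cpe, a peptide-processing enzyme beside Msmo1, had 13.8 RPKM in Sfpq and 51.4 RPKM in Luc libraries (-1.86, limma adjusted p = 2.06e-06), where Msmo1 had -0.21 and did not pass. In the Fads cluster, Fads3 fell (-0.46, limma adjusted p = 0.00835), but less than its neighbour Fads2 at -0.84. Elsewhere neighbours of called members did not pass, as for Nadsyn1 (0.22) and Cttn (-0.03) beside Dhcr7.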
